A study of Sus scrofa with 6 samples.

Results

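The cells described here are villus absorptive enterocytes of the piglet ileum, the epithelial cells that digest and take up nutrients from milk. They were chosen by their UMIs (unique molecular identifiers, which count captured RNA molecules) in single-cell 3' libraries. A barcode was kept if it had at least 1000 UMIs, at least 500 genes and under 25% of its UMIs from 13 mitochondrial genes, with at least 5 UMIs in all of the epithelial genes EPCAM, KRT8 and VIL1. It also needed at least 5 UMIs in all of APOC2, RBP2 and MEP1A, more of them than of the crypt genes OLFM4 and SPINK1, under 10 UMIs of CHGA and CHGB, under 10 of MUC2, FCGBP and CLCA1, and at most 1 of PTPRC. These thresholds were met by 1609 of 71547 barcodes that passed the limits on UMIs, genes and mitochondrial share (quality-passing barcodes). Every gene in the rule is therefore reported as a description of how the cells were chosen.

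The series holds 6 libraries of ileal mucosa from male piglets (Sus scrofa) aged 0, 1, 3, 7, 14 and 21 days, 1 library per age. The piglets came from large white sows and were kept on maternal milk. Mucosa was taken from 5 animals of an age, and how many of them went into each library is not stated. The mucosa was scraped off, incubated with EDTA and then digested with an enzyme for 1 min. Recovery of villus epithelium may therefore vary between libraries, and its part in the results was not tested. With 1 library per age no difference between ages has a replicate check, no p-value is given, and all 95% intervals (exact Poisson for summed counts, exact Clopper-Pearson for shares) cover counting error only. The labels name ileum for every sample, whereas the design text of the series names cecum, and the cells carried FABP6 and SLC10A2, genes of ileal bile acid uptake, as given below.

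As background, enterocytes arise from crypt progenitors and mature while they move up the villus. They carry microvilli with digestive enzymes and transporters, re-esterify fatty acids and export them with apolipoproteins in chylomicrons, and in the ileum recover bile acids through SLC10A2, FABP6 and the SLC51A and SLC51B exporter. In suckling mammals the ileal enterocytes also take up whole milk proteins by endocytosis and digest them in large lysosomes, a neonatal trait that is lost as the gut matures.

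The number of enterocytes differed widely between libraries. There were 1030 of 9641 quality-passing barcodes on day 0 (10.7%, 10.1% to 11.3%) and 492 of 10324 on day 1 (4.77%, 4.36% to 5.19%). Day 7 held 63 of 11976 (0.526%, 0.404% to 0.673%) and day 14 held 23 of 15691 (0.147%, 0.0929% to 0.220%). Day 3 had 1 such cell of 10531, and day 21 had 0 of 13384, which allows a share of up to 0.0224% by a limit of 3 counts and up to 0.0276% by the exact interval. The fall in number ran together with a fall in all epithelial barcodes, of which there were 2764, 958, 87, 207, 35 and 1 on days 0, 1, 3, 7, 14 and 21. Among those epithelial barcodes the enterocytes made up 37.3%, 51.4%, 1.15%, 30.4% and 65.7% on days 0, 1, 3, 7 and 14, so their share of the epithelium did not follow the order of age. Only days 0, 1, 7 and 14, with at least 20 enterocytes each, are described further, and lists of 4 values stand in that order.

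**Figure D1:**
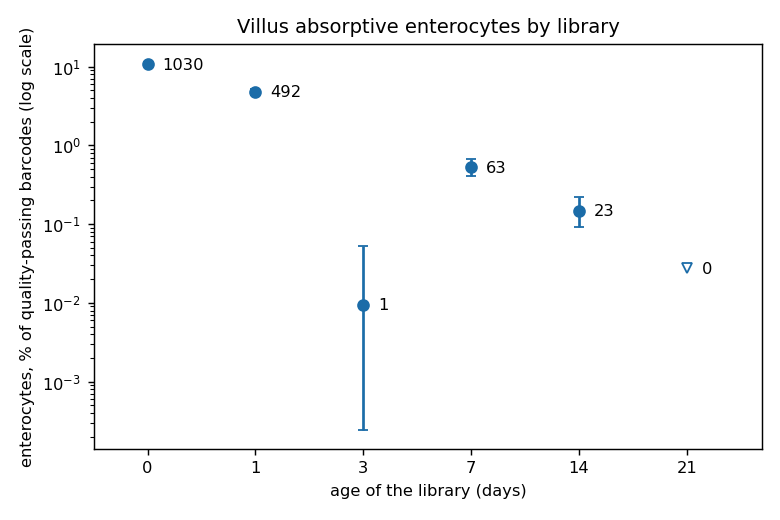
Share of quality-passing barcodes that were villus absorptive enterocytes in each library (log scale) against the age of the library in days, with exact 95% binomial intervals as bars and the number of cells beside each point. The open triangle for day 21 marks the upper end of the interval for 0 cells, and the plotted shares fall from 10.7% on day 0 to 0.00950% (1 cell) on day 3, with 0.526% and 0.147% on days 7 and 14.

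The enterocytes had many UMIs per barcode, which the rule's minimum numbers of UMIs favour. Their median UMIs per cell were 16960, 20130, 9289 and 6491, against medians of 3790.5 to 4613 over the quality-passing barcodes of the 6 libraries. Summed over cells they held 20662777, 11192915, 630158 and 160393 UMIs, so the precision of the later ages was lower. A gene at 10 UMIs per 10000 has an interval of 9.86 to 10.1 on day 0 and 8.49 to 11.6 on day 14. Median mitochondrial shares were 9.93%, 9.51%, 6.80% and 6.87%. Doublets were not called or removed, and 26 of the 1609 barcodes were also quality-passing in another library, 17 of them on day 0 and 9 on day 1. Few cells of day 0 stood near the thresholds of the rule. On day 0, 24 enterocytes had 5 or 6 UMIs of APOC2, RBP2 and MEP1A and 30 barcodes with 3 or 4 were left outside, while the median enterocyte had 123.5. That median was 170.5, 22 and 24 on days 1, 7 and 14. On day 7, 3 enterocytes had 5 or 6 such UMIs and 5 barcodes with 3 or 4 were left outside, beside 63 cells. On day 14 these numbers were 2 and 1 beside 23 cells. A minimum of 10 such UMIs would have kept 55 and 21 cells on those days. For the mitochondrial limit, 68 enterocytes of day 0 lay between 20% and 25% and 28 barcodes outside lay between 25% and 30%.

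The label was checked against markers that the rule had not used. A level is throughout the UMIs of a gene summed over the enterocytes of a library per 10000 UMIs of those cells, with no division by gene length since 3' counting takes 1 end of each molecule. APOA1, the main protein of high density lipoprotein, had levels of 36.0, 100.4, 90.6 and 61.7, and FABP6, the ileal bile acid binding protein, had levels of 18.7, 35.6, 175 and 212. FABP6 had a UMI in 59.0, 44.7, 90.5 and 100% of the enterocytes, against 11.4%, 14.1%, 9.30% and 0.451% of leukocyte barcodes of the same libraries, which should lack it. These had at least 2 UMIs of the leukocyte gene PTPRC, 0 UMIs of the epithelial genes and a median of 3552 to 4965 UMIs. With each cell thinned to 1000 UMIs the shares were 27.4%, 18.6%, 77.4% and 99.0% of enterocytes and 3.49%, 3.86%, 2.60% and 0.103% of leukocyte barcodes. That sets FABP6 above background, but it cannot tell these cells from other epithelium. Barcodes of crypt progenitors also held UMIs of FABP6, as given below. The median enterocyte had 0.728 and 0 FABP6 UMIs per 10000 on days 0 and 1, so on those days it did not mark the typical cell. The genes of the rule had levels of 57.2, 52.6, 3.87 and 0.0623 for APOC2, 29.9, 52.9, 19.9 and 39.7 for RBP2 and 1.54, 4.45, 3.84 and 3.74 for MEP1A, an activator of lipoprotein lipase, a retinol binding protein and a brush border metalloprotease. APOC2 was therefore not a marker of the later cells. It had 1 UMI over the 23 cells of day 14 and a UMI in 7 of the 63 cells of day 7, and the rule without it still took 63 and 23 cells on those days.

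Markers of other cells were set beside the free RNA of the same libraries (barcodes with 1 to 100 UMIs). Summed levels of 10 B lineage markers were 0.151, 0.187, 0.984 and 0.998 in the enterocytes, against 4.42, 4.85, 31.7 and 39.9 in free RNA. The 11 T and NK cell markers summed to 0.293, 0.106, 0.127 and 0, against 11.7, 5.94, 4.08 and 3.81. The 12 stromal and endothelial markers summed to 0.314, 0.827, 0.0476 and 0, against 4.46, 7.72, 1.17 and 0.361. These lists thus stood below free RNA in all 4 libraries. Myeloid markers, 12 in number, summed to 0.484, 0.795, 0.492 and 0.686, against 5.54, 10.7, 0.494 and 0.777, so on days 7 and 14 they were close to it. Tuft markers, 10 in number, summed to 0.397, 0.619, 0.682 and 0.249, the 5 markers of BEST4 cells to 0.349, 0.575, 0.190 and 0.187, the 6 erythroid markers to at most 0.190 and the 4 Paneth cell markers in the files to at most 0.0317. The 12 goblet markers, 3 of them limited by the rule, summed to 4.78, 7.75, 13.0 and 2.56, against 100.2, 25.1, 0.996 and 5.16 in free RNA. They stood above free RNA on day 7, mostly through SPINK4 at 12.6. The 14 enteroendocrine markers, 2 of them limited by the rule, summed to 4.07, 0.969, 0.143 and 0.0623, and on day 0 the highest counts in a single cell were 2360 UMIs of GIP and 2348 UMIs of NTS, gut hormone genes that the rule does not limit. The 15 crypt and stem markers, which include OLFM4 and SPINK1 of the rule, summed to 11.2, 25.8, 25.01 and 14.4, above the 7.18, 12.4, 0.982 and 0.351 of free RNA. Most of that sum was CLCA4, at 10.4, 24.99, 23.3 and 14.4, while LGR5, the receptor that marks stem cells, had 5, 5, 0 and 0 UMIs. Levels relative to free RNA differed between single genes. On day 0 TFF3, a goblet gene, stood at 1.01% of its level in free RNA, CCL5, a lymphocyte chemokine, at 2.36%, CD74 of antigen presenting cells at 3.59% and FCN2, high in crypt progenitors, at 11.2%. On day 7 TFF3 stood at 25.6%, CHGA, an enteroendocrine granule gene of the rule, at 92.7%, AGR2, a goblet gene, at 132.4% and FCN2 at 185.3%, from free levels of at most 0.434 per 10000.

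The genes with the highest levels held fewer ribosomal protein genes at the later ages. Of the 25 highest genes, ribosomal protein genes made up 14, 9, 4 and 0, mitochondrial genes 6, 6, 6 and 4, and other genes 5, 10, 15 and 21. On days 0 and 1 the first place was held by mitochondrial COX2. By day 7 it was REG3G, a secreted antibacterial lectin, at 199 and FABP6 came close to it at 175, and by day 14 it was LOC100520832 at 407, followed by REG3G at 313 and FABP6.

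Ages were compared by the fold between the summed levels of 2 libraries, for genes at 0.5 UMIs per 10000 or more in either and with at least 10 UMIs in both together. A gene is called higher or lower here when that fold was at least 2, a rule of size and not a test. A gene that reached the minimum level in only 1 library of a pair passed through that library and could only be called in its direction, so the counts over list members given below, which cover the measured members and not the whole list, are descriptions. From day 0 to day 1, 321 of 3014 genes (10.7%) were higher and 56 (1.86%) lower, with a median log2 fold of 0.24 over all genes tested. Between day 1 and day 7, 299 of 3329 (8.98%) were higher and 250 (7.51%) lower, and the median was 0.08. Between day 7 and day 14, 389 of 3301 (11.8%) were higher and 639 (19.4%) lower, with a median of -0.18. From day 0 to day 14, 886 of 3158 (28.1%) were higher and 711 (22.5%) lower, with a median of 0.20. Comparisons that name the same day share its library. The shares over all genes just given stand behind each count of list members below, and a count near its share is no result about the list. The split of the calls depended on the scale. With TMM factors, which scale libraries by the bulk of their genes, the share of calls that were higher was 65.4% in place of 85.1% from day 0 to day 1, 44.4% in place of 54.5% from day 1 to day 7, 43.8% in place of 55.5% from day 0 to day 14, and 42.9% in place of 37.8% from day 7 to day 14. With a total that leaves out mitochondrial and ribosomal protein genes it was 55.6%, 33.9% and 27.7% for the same pairs and 30.8% in place of 37.8% from day 7 to day 14, and the medians were -0.02, -0.15, -0.54 and -0.28. The folds below are on the total of all genes, and calls near 2-fold are the ones these shifts can move.

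**Figure D2:**
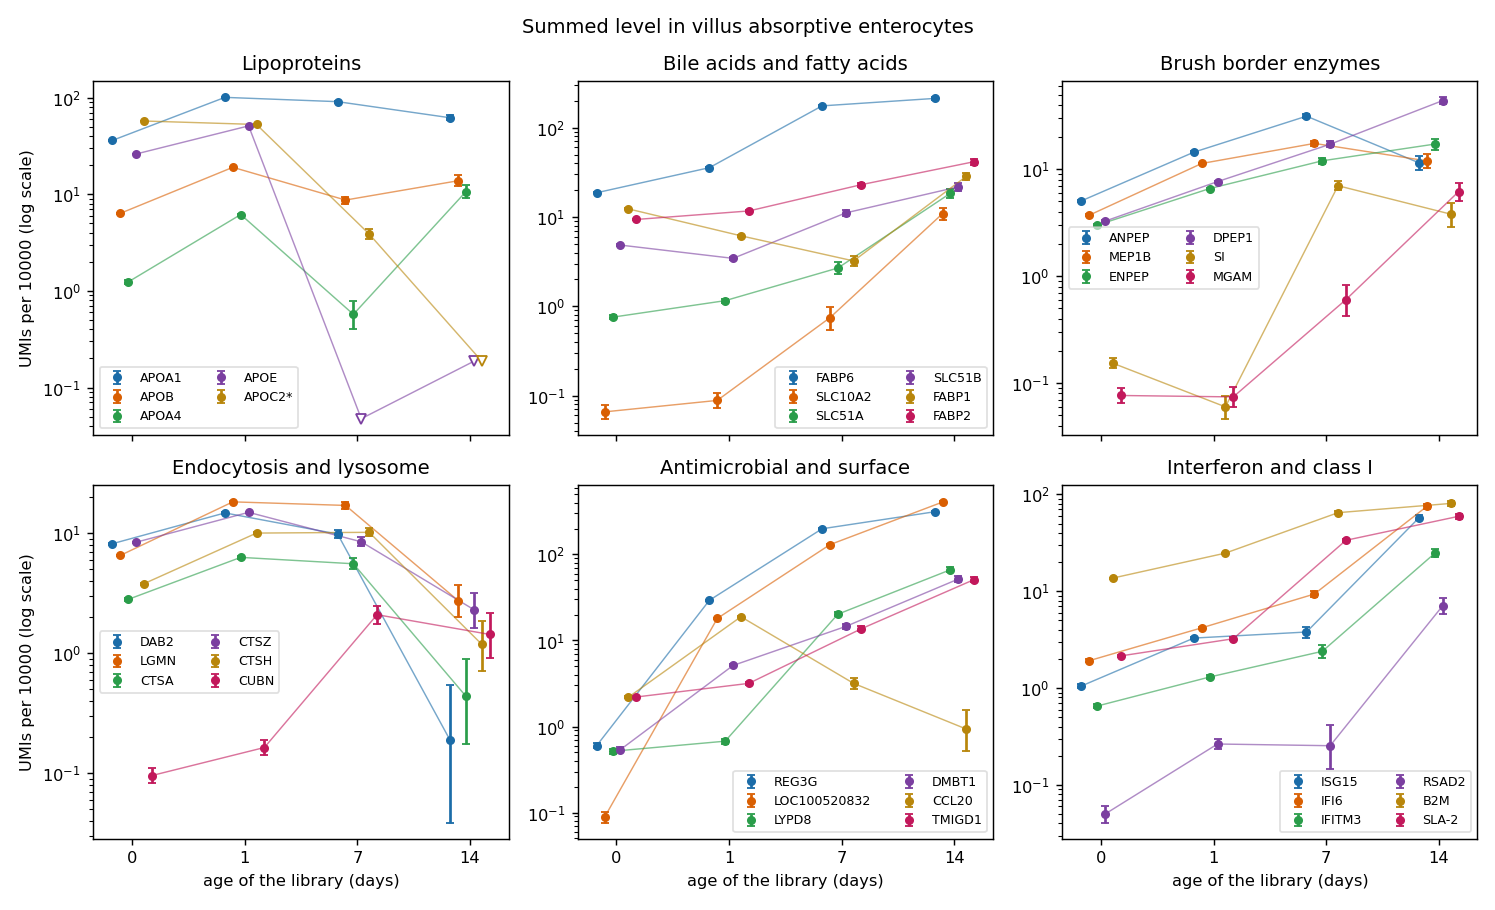
Summed level of named genes in the enterocytes (UMIs per 10000, log scale) against the age of the library in days, in 6 panels by function, with exact 95% Poisson intervals as bars. Open triangles mark libraries with under 3 UMIs of a gene, drawn at the level of 3 UMIs, and the asterisk marks APOC2, a gene of the selection rule. APOE has 0 UMIs on days 7 and 14, APOC2 falls from 52.6 on day 1 to 3.87 on day 7, DAB2 falls to 0.187 on day 14, and FABP6, REG3G and ISG15 stand highest on day 14.

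Lipoprotein genes differed from each other in how their levels stood by age. APOA1 stood at 36.0, 100.4, 90.6 and 61.7, and was 2.79-fold higher on day 1 than on day 0. APOB, the structural protein of chylomicrons, had levels of 6.33, 19.0, 8.70 and 13.8. MTTP, which loads lipid onto APOB, had 1.94, 4.26, 3.22 and 5.11, and APOC3, an inhibitor of lipoprotein clearance, 0.833, 3.74, 1.09 and 3.06. All of these were highest on day 1 or day 14 and lowest on day 0, except that APOC3 was lowest on day 7 on the total without mitochondrial and ribosomal protein genes. APOA4, a chylomicron protein of milk fat absorption, ran up and down at 1.23, 6.16, 0.571 and 10.7, being 4.99-fold higher on day 1 than day 0, 10.8-fold lower on day 7 than day 1 and 18.7-fold higher on day 14 than day 7. CREB3L3, a transcription factor of lipid export genes, moved in the same order with 1.22, 3.07, 1.21 and 8.11.

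The sharpest contrast among lipoprotein genes was APOE, the ligand through which lipoprotein remnants are taken up. Its levels were 26.0, 50.9, 0 and 0, from 53795 and 56956 UMIs on days 0 and 1 to 0 UMIs in the 63 and the 23 cells of days 7 and 14. On day 7 that was at least 1069-fold lower than on day 1, computed against a floor of 3 UMIs in the library. Free RNA held APOE at 9.89, 12.7, 0.151 and 0.0690, and the same limit of 3 UMIs is a level of 0.0476 on day 7, below the free RNA of that library. APOC2, a gene of the rule and so a description only, was 13.6-fold lower on day 7 than day 1. Of its 244 UMIs on day 7, 172 were in 1 cell, and without that cell, left out after seeing the data, it was 45.3-fold lower. APOE (chr6:51373113-51375333), APOC4 (chr6:51400909-51403719) and APOC2 (chr6:51404219-51406302) lie within 33.2 kb on chromosome 6 of Sscrofa11.1 with 0 other annotated genes between them. APOA4 (chr9:44201587-44204072), APOC3 (chr9:44211171-44213538) and APOA1 (chr9:44216481-44218360) lie within 16.8 kb on chromosome 9 with 1 other annotated gene between them, and all had UMIs at every age described. Of 12 genes listed for apolipoproteins and chylomicron assembly, 5 of 11 measured were higher and 0 lower on day 1 than day 0, 1 of 12 higher and 5 lower on day 7 than day 1, and 3 of 11 higher and 1 lower on day 14 than day 7. From day 0 to day 14, 9 of 12 were higher and 2 lower (APOE and APOC2 of the rule, which is also among the lower genes of the other pairs from day 1 on), and the count of higher genes was 5 on the total without mitochondrial and ribosomal protein genes. Of all genes, 10.7%, 8.98%, 11.8% and 28.1% were higher in these pairs and 1.86%, 7.51%, 19.4% and 22.5% lower.

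Fatty acid binding proteins separated by member. FABP2, the intestinal form, had levels of 9.38, 11.7, 23.0 and 41.6, higher at each later day, whereas FABP1, the liver form, had 12.3, 6.15, 3.22 and 28.5, with its lowest level on day 7. FABP1 was 8.84-fold higher on day 14 than day 7. SLC27A4, a fatty acid transporter, had 1.80, 2.83, 3.73 and 4.80, and DGAT1, which makes triglyceride, had 2.02, 3.34, 3.86 and 3.30. Of the list of 18 genes for fatty acid uptake and triglyceride synthesis, 1 of 9 measured was higher and 1 lower from day 0 to day 1, 0 of 11 were called from day 1 to day 7 and 2 of 12 were higher from day 7 to day 14. Over all genes 10.7%, 8.98% and 11.8% were higher in these pairs and 1.86%, 7.51% and 19.4% lower. With so few members these counts are no result about the list. Over the whole span 7 of 11 were higher on day 14 than day 0 and 0 were lower, against 4 higher on the total without mitochondrial and ribosomal protein genes.

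Bile acid genes were higher at the later ages. FABP6 (chr16:63297594-63303675) had levels of 18.7 (18.5 to 18.9), 35.6 (35.3 to 36.0), 175 (172 to 179) and 212 (205 to 219.7), with intervals in parentheses. These did not overlap, but they cover counting error only and not the spread between cells. Median levels of FABP6 over cells were 0.728, 0, 95.5 and 170. From day 0 to day 1 the share of cells with a UMI of it fell from 59.0% to 44.7%. The higher summed level on day 1 than day 0 was thus not seen in the median cell. SLC10A2 (chr11:71328801-71348779), the sodium-dependent transporter that takes bile acids up from the lumen, had 0.0658, 0.0884, 0.746 and 10.9 and a UMI in 9.71, 14.8, 30.2 and 100% of cells. Leukocyte barcodes with a UMI of it made up 0.0432%, 0.166% and 0.0343% on days 0, 1 and 7 and 0 of 13298 on day 14, which allows up to 0.0226%, and its levels in free RNA were 0, 0.0511, 0.00285 and 0.0122. It was 14.6-fold higher (95% interval of the ratio 10.55 to 20.6) on day 14 than on day 7. On day 14 all 23 enterocytes had a UMI of it, or 58.2% when each was thinned to 1000 UMIs. The 2 subunits of the basolateral exporter had 0.755, 1.16, 2.68 and 18.5 (SLC51A) and 4.85, 3.44, 11.11 and 21.8 (SLC51B). NR1H4, the bile acid receptor FXR, had 1.03, 1.84, 2.70 and 7.05. FGF19, a hormone that FXR induces in the ileum, had only 134, 30, 0 and 0 UMIs. Of the list, 0 of 4 measured genes were called from day 0 to day 1, 4 of 5 were higher from day 1 to day 7, 4 of 6 from day 7 to day 14 and 6 of 6 from day 0 to day 14, with 0 lower in each pair. The list has 11 genes, and those such as SLC10A2 that reached the minimum level only at the later day could only be called higher, so the counts are a description.

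Brush border enzymes differed in the day of their highest level. Peptidases were higher from day 1 on. ANPEP, aminopeptidase N, had levels of 5.05, 14.4, 31.4 and 11.47 and was highest on day 7. MEP1B, a meprin subunit, had 3.71, 11.3, 17.5 and 11.97. ENPEP, an aminopeptidase for acidic residues, had 3.00, 6.60, 11.997 and 17.2, and DPEP1, a dipeptidase, had 3.26, 7.66, 17.2 and 44.0, both highest on day 14. NAALADL1, a peptidase of the same membrane, had 0.815, 1.12, 6.46 and 15.1. Of 11 peptidase genes measured, 9, among them MEP1A of the rule, were higher on day 1 than day 0 and 0 lower, with a median log2 fold of 1.40. From day 1 to day 7, 3 were higher and 1 lower (ACE), and from day 7 to day 14, 2 were higher and 1 lower (ANPEP). From day 0 to day 14, 9 were higher and 0 lower. Of all genes, 10.7%, 8.98%, 11.8% and 28.1% were higher in these pairs and 1.86%, 7.51%, 19.4% and 22.5% lower. With so few members the calls from day 1 to day 7 and from day 7 to day 14 are no result about the list.

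SI and MGAM were higher at the later ages, while LCT was too low to be compared. LCT, lactase, which splits milk sugar, stood at 0.0716, 0.0652, 0.0952 and 0, or 148, 73, 6 and 0 UMIs, below the 0.5 per 10000 at which a gene was counted as measured in every library. SI, sucrase-isomaltase, had 0.153, 0.0599, 7.01 and 3.80 and was 117-fold higher (95% interval of the ratio 90.5 to 154) on day 7 than day 1, or 62.6-fold as the mean over cells. MGAM, maltase-glucoamylase, had 0.0765, 0.0742, 0.603 and 6.17, and was 10.2-fold higher on day 14 than day 7. SI was thus highest on day 7 and MGAM on day 14. Sugar and peptide carriers were low, with SLC5A1, the sodium-glucose cotransporter, at 1.26, 1.72, 4.73 and 4.18 and SLC15A1, the peptide transporter, at 0.235, 0.507, 0.762 and 1.56. SLC6A19, the main carrier of neutral amino acids, had 1.11, 2.29, 3.24 and 5.17. Of the amino acid and peptide transporters, 4 of 9 measured were higher from day 0 to day 1 and 0 lower, 2 of 11 higher and 1 lower from day 1 to day 7, 3 of 11 higher and 2 lower from day 7 to day 14, and 7 of 11 higher and 2 lower from day 0 to day 14. The lower genes of that last pair were SLC38A2 and SLC7A8. Shares of all genes in these pairs were 10.7%, 8.98%, 11.8% and 28.1% higher and 1.86%, 7.51%, 19.4% and 22.5% lower. The calls from day 1 to day 7 and from day 7 to day 14 are few and are no result about the list.

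Structural genes of the microvillus had 1 called member in each pair of consecutive ages. VIL1, the actin bundling protein used by the rule, had 2.43, 3.09, 5.06 and 8.11. Of 12 to 13 members measured, 1 was higher in each of the first pairs (CDHR2 from day 0 to day 1, MYO1A from day 1 to day 7) and USH1C was lower from day 7 to day 14. Over all genes 10.7% and 8.98% were higher in the first 2 pairs, which is near these counts, and 19.4% were lower from day 7 to day 14. From day 0 to day 14, 8 of 12 were higher, VIL1 among them, or 4 on the total without mitochondrial and ribosomal protein genes. Among keratins, KRT20, which marks mature surface epithelium, had 1.70, 1.42, 8.54 and 22.8 and was 6.03-fold higher on day 7 than day 1, while KRT8 of the rule had 16.2, 10.4, 20.8 and 13.8. TMIGD1, an adhesion protein of mature enterocytes, had 2.20, 3.17, 13.7 and 51.1. Junction genes, a list that holds EPCAM of the rule, were higher in 4 of 13 from day 0 to day 1, in 2 of 14 (EPCAM and CLDN7) from day 1 to day 7 with 1 lower, in 4 of 16 from day 7 to day 14 with 1 lower, and in 9 of 16, EPCAM among them, from day 0 to day 14 with 1 lower, CLDN15. Over all genes 10.7%, 8.98%, 11.8% and 28.1% were higher in these pairs. The median log2 fold of the junction genes in the last pair was 1.13, near the 2-fold limit that changes of scale can move.

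Genes of endocytosis and lysosomal digestion ran opposite to the bile acid genes at the later ages. The list sum was 63.0, 131, 104 and 29.99 per 10000. DAB2, the adaptor that carries receptors into clathrin-coated pits, had levels of 8.18, 14.8, 9.85 and 0.187, with 3 UMIs left on day 14, the interval of the ratio of day 14 to day 7 running from 0.00390 to 0.0557. LGMN, the lysosomal protease legumain, had 6.53, 18.3, 17.1 and 2.74. CTSA, a serine carboxypeptidase, had 2.81, 6.30, 5.57 and 0.436, CTSC, a dipeptidyl peptidase, had 3.07, 6.58, 1.27 and 0, and CTSH, a cathepsin, had 3.79, 10.0, 10.2 and 1.18. All of these were highest on day 1 or, for CTSH, on day 7, and lowest on day 14. CTSH was highest on day 1 with TMM factors and on both totals without mitochondrial genes. CTSZ had 8.41, 14.96, 8.49 and 2.31 and PSAP, the precursor of the saposins, 2.77, 8.96, 4.01 and 1.06. Of 23 list members measured, 14 were higher on day 1 than day 0 and 0 lower, a count that was 6 with TMM factors, 4 on the total without mitochondrial and ribosomal protein genes and 7 with the deepest 10% of cells left out. From day 1 to day 7, 1 of 24 was higher and 4 lower, against 8.98% and 7.51% of all genes. From day 7 to day 14, 18 of 24 were lower and 0 higher, with a median log2 fold of -1.91 against -0.18 over all genes.

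CUBN and AMN were not called lower from day 7 to day 14, unlike most of the list, and neither was FCGRT of the immunoglobulin transport list. CUBN, cubilin, which binds many luminal proteins, had 0.0953, 0.163, 2.09 and 1.43 and was 12.8-fold higher on day 7 than day 1. AMN, its membrane anchor, had 3.69, 4.06, 4.84 and 3.93, within 1.5-fold in all 4 libraries. FCGRT, the neonatal Fc receptor that carries immunoglobulin G, had 7.15, 6.12, 12.7 and 10.1. It was called higher from day 1 to day 7 and was lower on day 14 than day 7 by less than 2-fold. LRP2, megalin, a receptor that works with CUBN, had 98, 45, 0 and 0 UMIs. PIGR, the receptor that exports immunoglobulin A, had 1, 0, 0 and 0 UMIs. Outside the list, the largest losses from day 7 to day 14 included SMPDL3A, a sphingomyelin phosphodiesterase relative, with 2.55, 4.05, 7.06 and 0.0623, MELTF, melanotransferrin, with 4.98, 9.56, 5.59 and 0.0623, and SCPEP1, a serine carboxypeptidase, with 2.29, 5.07, 5.59 and 0.374. On day 14 SMPDL3A and MELTF had 1 UMI each.

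**Figure D3:**
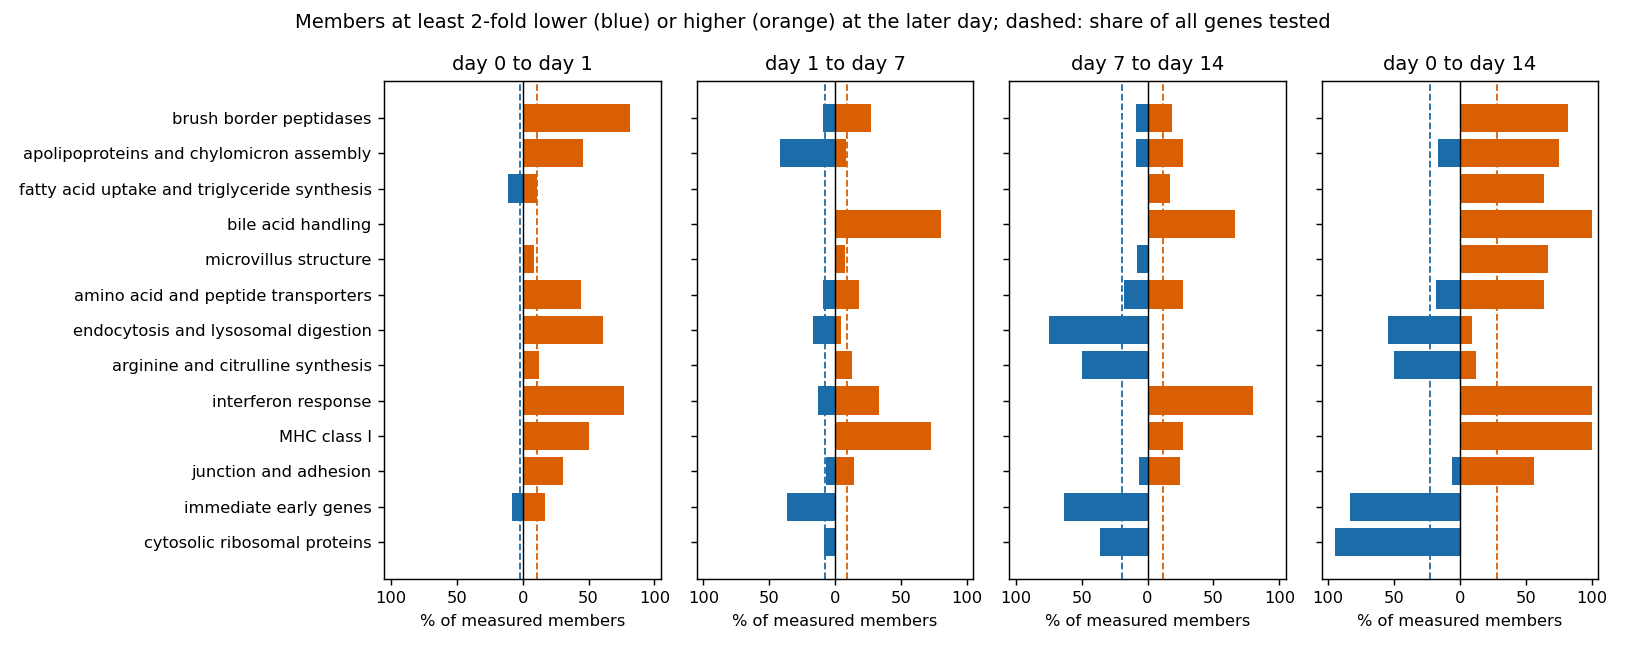
Share of the measured members of 13 gene lists that were at least 2-fold higher (orange, to the right) or lower (blue, to the left) at the later of 2 days, in percent of measured members, with 1 panel per pair of ages. Dashed lines give the share over all genes tested in the pair, which was 11.8% higher and 19.4% lower from day 7 to day 14, where interferon genes stand far to the right and lysosomal genes far to the left.

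Amino acid and mineral genes also divided by age. ASS1, which makes the precursor of arginine from citrulline, had 1.94, 9.10, 14.5 and 20.01, higher at each later day and 4.70-fold higher on day 1 than day 0. The mitochondrial side of citrulline synthesis was lower on day 14. OTC, which makes citrulline, had 1.11, 0.899, 1.17 and 0, CPS1, which supplies its carbamoyl phosphate, 2.98, 4.62, 5.27 and 1.37, and OAT, which makes ornithine, 17.3, 24.0, 23.5 and 3.80. OAT, CPS1 and OTC were each called lower from day 7 to day 14. S100G, the calcium binding protein calbindin-D9k, had 28.6, 30.7, 15.8 and 1.43 and was 10.99-fold lower on day 14 than day 7. Ferritin subunits parted, FTH1 having 83.2, 102, 80.1 and 126 and FTL 43.4, 53.7, 45.6 and 14.3. SELENOP, a selenium carrier, had 15.1, 36.6, 43.7 and 9.98, and GPX3, a secreted selenoprotein peroxidase, 2.35, 6.05, 0.270 and 0, with 0 UMIs of GPX3 on day 14.

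Antimicrobial genes were among those with the largest folds over age. REG3G had levels of 0.601 (0.568 to 0.635), 29.3 (29.0 to 29.6), 199 (195 to 202) and 313 (305 to 322), and was 48.8-fold higher (95% interval of the ratio 46.1 to 51.7) on day 1 than on day 0. It had a UMI in 9.22, 66.1, 88.9 and 82.6% of cells, against 0.777%, 10.4%, 5.11% and 0.917% of leukocyte barcodes. Thinned to 1000 UMIs these shares were 3.39%, 39.9%, 84.1% and 82.6%, against 0.230%, 2.75%, 1.28% and 0.181%. Its levels in free RNA were 0.363, 9.10, 1.94 and 0.406, below the enterocytes in each library and on day 0 by less than 2-fold. On day 0 it was found in 95 of 1030 cells, and on day 1 the top 10% of cells held 64.7% of its UMIs. LOC100520832 had 0.0886, 18.0, 130.01 and 407, a level 204-fold higher on day 1 than day 0 (327.7-fold as the mean over cells, 342.8-fold without the deepest 10% of cells), and LOC100624628 had 0, 0.0465, 0.127 and 11.04, highest on day 14. LOC100520832 (chr3:64792665-64795666), LOC100624628 (chr3:64839426-64841924) and REG3G (chr3:64847629-64850365) lie next to each other within 57.7 kb of chromosome 3 with 0 other annotated genes between them. Reads of similar neighbours may be assigned to the wrong copy, so the split among these genes is uncertain. Cells with a UMI of REG3G and cells with a UMI of LOC100520832 overlapped in part. Of the 1030 cells of day 0, 20 had both, 75 REG3G alone, 24 LOC100520832 alone and 911 neither. On day 1, 226 of 492 cells had both, 99 REG3G alone, 40 LOC100520832 alone and 127 neither. On day 7 these were 49, 7, 1 and 6 of 63 cells, and on day 14, 18, 1, 0 and 4 of 23.

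Other surface defence genes did not share 1 time course. LYPD8, which keeps flagellated bacteria off the epithelium, had 0.515, 0.675, 20.2 and 66.5 and was 29.9-fold higher on day 7 than day 1, or 54.9-fold with APOC2 left out of the rule. DMBT1, a scavenger receptor that binds bacteria, had 0.539, 5.12, 14.6 and 51.8. LBP, a lipopolysaccharide binding protein, had 0.0353, 1.41, 2.65 and 3.06, and was 40.0-fold higher on day 1 than day 0. CCL20, a chemokine for dendritic cells and lymphocytes, was highest on day 1, with 2.18, 18.9, 3.17 and 0.935. CCL25, which draws lymphocytes to the small intestine, had its lowest level on that day, with 8.66, 3.15, 17.7 and 13.7. NOS2, the inducible nitric oxide synthase, had 0.00532, 0.178, 0.0952 and 1.995, and CCL24, an eosinophil chemokine, 0.00581, 0.0366, 1.63 and 1.37. In the list of antimicrobial and epithelial immune genes, 3 of 6 measured were higher and 1 lower from day 0 to day 1, 6 of 9 higher and 2 lower from day 1 to day 7, and 2 of 9 each way from day 7 to day 14. Of all genes, 10.7%, 8.98% and 11.8% were higher in these pairs and 1.86%, 7.51% and 19.4% lower. The 2 of 9 each way are thus no result about the list.

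Interferon response genes had their highest summed level on day 14. ISG15, a ubiquitin-like modifier, had levels of 1.05 (1.01 to 1.09), 3.28 (3.18 to 3.39), 3.79 (3.33 to 4.31) and 57.6 (54.0 to 61.4). It was 15.2-fold higher (95% interval of the ratio 13.2 to 17.6) on day 14 than on day 7, and found in all 23 cells of day 14, with a median of 43.1 per 10000, against 42 of 63 cells on day 7 with a median of 1.22. Thinned to 1000 UMIs, cells with a UMI of it made up 8.64%, 20.2%, 20.8% and 88.8% of enterocytes and 22.2%, 37.1%, 20.7% and 14.2% of leukocyte barcodes, which can express it themselves, so on day 7 the shares were alike and on day 14 that of the enterocytes was higher. IFI6 had 1.92, 4.19, 9.36 and 75.6, RSAD2, viperin, 0.0498, 0.264, 0.254 and 7.11, MX1, an antiviral GTPase, 0.125, 0.939, 0.889 and 4.93, and ISG12(A) 2.58, 5.24, 21.1 and 49.3. CXCL10, a chemokine for T cells, had 0.0286, 0.338, 0.0952 and 4.43. Of 13 list members measured, 10 were higher on day 1 than day 0 and 0 lower. From day 1 to day 7, 5 of 15 were higher and 2 lower (GBP1 and DDX58), against 8.98% and 7.51% of all genes. From day 7 to day 14, 16 of 20 were higher and 0 lower, with a median log2 fold of 2.26 against -0.18 over all genes. From day 0 to day 14, 20 of 20 were higher. Over all genes 11.8% and 28.1% were higher in those pairs. Members such as RSAD2 that reached the minimum level only on day 14 could only be called higher, so the counts are a description. The list summed to 9.54, 25.6, 48.5 and 239 per 10000 in the enterocytes and to 14.0, 28.9, 26.0 and 25.2 in the free RNA of the same libraries.

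Genes of MHC class I antigen presentation were, among consecutive ages, called higher most often from day 1 to day 7. B2M, the invariant chain, had 13.7, 24.8, 64.8 and 80.7, SLA-1 3.53, 10.7, 24.4 and 37.9, SLA-2 2.15, 3.23, 33.6 and 59.4 and SLA-3 0.981, 2.91, 9.32 and 17.8. SLA-2 was 10.4-fold higher on day 7 than day 1. The SLA genes are polymorphic and alike, and a library may hold several piglets, so the split of reads between them is uncertain. Of a list of class I genes added after values had been seen, 4 of 8 were higher from day 0 to day 1, 8 of 11 from day 1 to day 7, 3 of 11 from day 7 to day 14 and 10 of 10 from day 0 to day 14, with 0 lower in each pair. The shares of all genes that were higher in these pairs were 10.7%, 8.98%, 11.8% and 28.1%. IFITM1 and IFITM3, membrane proteins that block virus entry and are close copies of each other, had 2.22, 10.1, 41.2 and 149.6 and 0.651, 1.30, 2.40 and 24.8.

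Most ribosomal protein genes were called lower from day 0 to day 14, with 0 and 7 of 81 called over the steps up to day 7. Their sum, a list added after values had been seen, was 2933, 1941, 1276 and 678 per 10000 in the enterocytes, against 2735, 2465, 2939.7 and 3048 in free RNA. RPS20, the highest of them on days 0 and 1, had 118, 82.6, 51.0 and 20.3. Of 81 measured, 0 were called from day 0 to day 1 (median log2 fold -0.61), 7 were lower from day 1 to day 7 (-0.60, with 7.51% of all genes lower), 29 from day 7 to day 14 (-0.88) and 77 from day 0 to day 14 (-2.14), with 0 higher. On a scale of all UMIs a lower ribosomal sum goes by arithmetic with higher levels of the other genes, and the counts on a total without these genes are given above. Immediate early genes, which answer stress and growth signals within minutes, were also lower late. EGR1 had 5.66, 5.65, 2.14 and 0.312, FOS 5.11, 4.19, 3.68 and 1.93 and JUN 18.3, 16.9, 20.3 and 7.86, and of the list 2 of 12 measured were higher and 1 lower from day 0 to day 1. From day 1 to day 7, 4 of 11 were lower, from day 7 to day 14, 7 of 11, and from day 0 to day 14, 10 of 12, with 0 higher in each. Of all genes, 7.51%, 19.4% and 22.5% were lower in these pairs. From day 0 to day 1, 10.7% of all genes were higher and 1.86% lower, so the calls of that pair are no result about the list. By contrast, hypoxia and glycolysis genes had 0 of 9 or 10 called in every pair. Heat shock chaperones had 4 of 12 higher and 4 lower from day 0 to day 14. Over all genes 28.1% were higher and 22.5% lower in that pair, so the chaperones did not stand out.

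Other genes with large folds had little in common. From day 0 to day 1, SMPDL3B, a membrane phosphodiesterase, went from 0.434 to 7.02, and MT1D, a metallothionein, was 14.4-fold higher and then 12.8-fold lower on day 7. LGALS2, a galectin, had 34.1, 14.6, 11.11 and 7.73. BEX4 had 6.12, 14.1, 0.254 and 0, with 0 UMIs on day 14. DISP2, chiefly known from hedgehog release, was among the highest genes with 39.3, 30.6, 92.8 and 138, and PRAP1, a secreted lipid binding protein, had 20.1, 36.9, 89.5 and 49.7. EIF1AY, a Y-linked gene, was among the largest folds from day 7 to day 14. It had 395, 599, 2 and 18 UMIs in 217, 266, 2 and 13 enterocytes, and over all quality-passing barcodes it stood at 0.232, 0.486, 0.0509, 0.0781, 0.0754 and 0.384 per 10000 on days 0, 1, 3, 7, 14 and 21. All samples carry the label male, so the level of this gene differed between libraries of 1 labelled sex, and the part of animal differences in the other folds was not tested.

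At most 1 cell of a library was over 100 UMIs per 10000 both for FABP6 and for the sum of the lysosomal list, many cells were over neither limit, and with a lower limit more cells were over both. On day 0 the top 10% of cells held 84.0% of FABP6 UMIs and on day 1 96.1%, against 48.3% on day 7 and 32.8% on day 14. The highest single cell had 1398, 2466, 1314 and 824 FABP6 UMIs per 10000. A limit of 100 UMIs per 10000, set after the values were seen, cuts a range and defines no type. FABP6 was over it in 47 of 1030, 27 of 492, 31 of 63 and 18 of 23 cells, or 4.56%, 5.49%, 49.2% and 78.3%. The 27 members of the endocytosis and lysosomal list together were over it in 269, 322, 18 and 0 cells, or 26.1% (23.5% to 28.9%), 65.4% (61.1% to 69.6%), 28.6% (17.9% to 41.3%) and 0, which allows up to 13.0% of 23 cells by a limit of 3 counts and up to 14.8% by the exact interval. Cells over both limits numbered 0, 1, 1 and 0, and cells over neither 714, 144, 15 and 5, or 69.3%, 29.3%, 23.8% and 21.7%. With the limit at 50, FABP6 was over it in 79, 41, 36 and 20 cells, the lysosomal list in 423, 409, 37 and 1, and both in 4, 13, 15 and 1, so on day 7 the 15 were a large part of either group. On day 14 the highest cell had 60.5 for the lysosomal list.

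**Figure D4:**
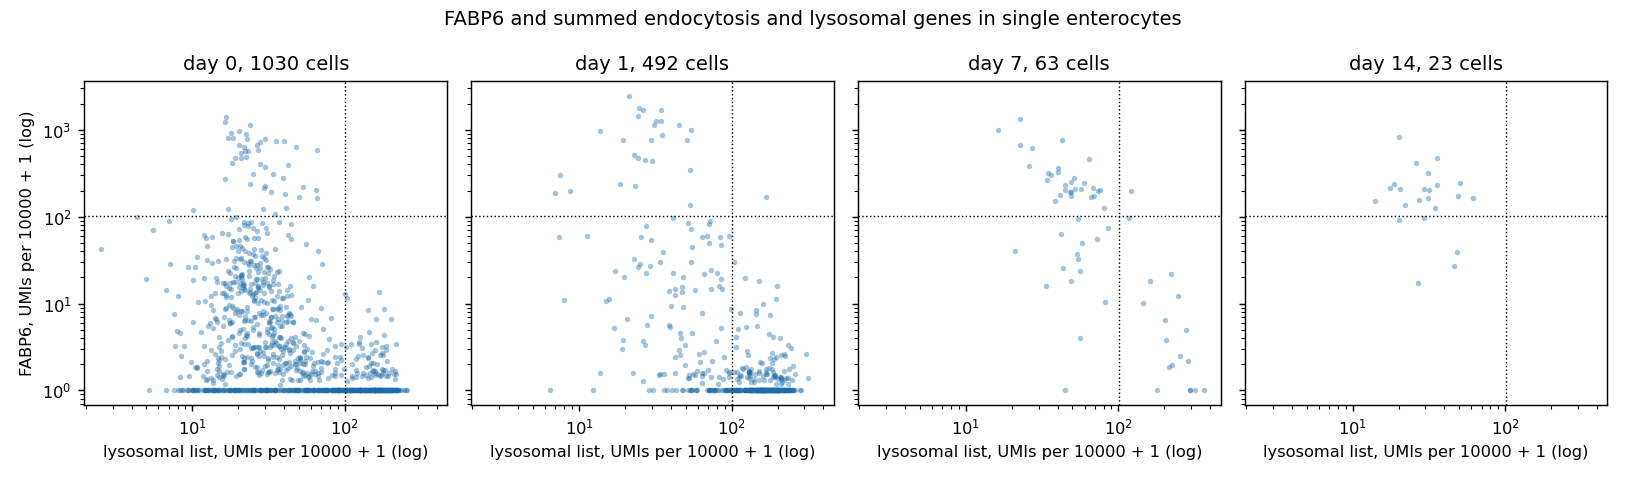
FABP6 (vertical axis) against the sum of the endocytosis and lysosomal genes (horizontal axis) in single enterocytes, both as UMIs per 10000 plus 1 on log scales, with 1 panel for each of days 0, 1, 7 and 14 and 1 point per cell. Dotted lines mark 100 UMIs per 10000, and the upper right corner holds 0, 1, 1 and 0 cells.

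Cells at the 2 ends differed in many genes at once on day 7. These are descriptions, since the ends were drawn from the same counts. Medians over the FABP6-high cells (30, leaving out the 1 cell over both limits) against the lysosomal-high cells (17) were 36.3 and 184 for APOA1, 38.0 and 199.98 for PRAP1, and 35.8 and 113 for B2M. SI had 9.30 and 0, CCL25 22.7 and 0, DISP2 121 and 40.0, and SPINK4, a small secreted protein also listed as a goblet marker, 1.01 and 34.6. SI, CCL25 and DISP2 thus had the higher median at the FABP6 end, and APOA1, PRAP1, B2M and SPINK4 at the lysosomal end. REG3G was high at both ends, at 218 and 161. Median UMIs of the groups were 9246 and 10551 and median mitochondrial shares 8.45% and 5.25%. On day 0, where the groups were 47 and 269 cells with median UMIs of 10740 and 17553, APOE had 0 and 87.4, DISP2 76.5 and 14.3, S100G 0.956 and 27.7, and APOA1 83.8 and 94.9.

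Correlations over cells of 1 library were computed as Pearson's r of log values after each cell was thinned to 1000 UMIs, so the cells share a depth and a library. FABP6 and the lysosomal list had r of -0.28, -0.45, -0.63 and -0.18 over 1030, 492, 63 and 23 cells. APOA1 and the lysosomal list had 0.69, 0.63, 0.73 and 0.15. APOE and the lysosomal list had 0.68 and 0.60 on days 0 and 1, whereas APOE and the ribosomal sum had -0.47 and -0.33. Among 364 genes seen in at least 25% of the thinned cells of day 0, those with the highest r with FABP6 were led by DISP2 at 0.35, and those with the lowest by S100G at -0.28, followed by APOE, APOC2 and DAB2. Over the 63 cells of day 7 FABP6 had r of 0.64 with DISP2, 0.59 with KRT20 and 0.52 with SI, and of -0.62 with DAB2, -0.56 with GGH, a lysosomal hydrolase of folates, and -0.54 with LGMN. APOA4, often taken as a gene of the villus tip, had its highest r on day 0 with APOA1, at 0.37, and its lowest with RPLP1, a ribosomal protein, at -0.26. REG3G and LOC100520832 had 0.15, 0.75, 0.74 and 0.82, and on day 0 the value was -0.022 when cells were thinned to 2000 UMIs. The weak values are no finding, among them those of the lysosomal list on day 14, of APOA4 and of REG3G on day 0. The 0.82 of REG3G and LOC100520832 on day 14 is not weak but rests on 23 cells of 1 library.

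Enterocytes were set beside crypt progenitors of the same library, found by the mirrored rule with OLFM4 and SPINK1 (206 cells on day 0, 76 on day 1). Since both groups were chosen by expression in these cells the ratios are a description. On day 0, 436 of 2799 genes (15.6%) were at least 2-fold higher in enterocytes and 226 (8.07%) lower. On day 1 these were 864 of 3475 (24.9%) and 574 (16.5%). Median UMIs per cell on day 0 were 16960 in enterocytes and 18447 in crypt progenitors. Leaving out genes of the rule, peptidases were higher in enterocytes in 10 of 10 measured on both days, and lysosomal genes in 20 of 21 and 23 of 23. Of 16 cell cycle genes, 9 were measured on day 0 and 11 on day 1, each of them lower in enterocytes. A member that reached the minimum level in only 1 of the groups could only be called in that direction, so these counts support nothing.

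**Figure D5:**
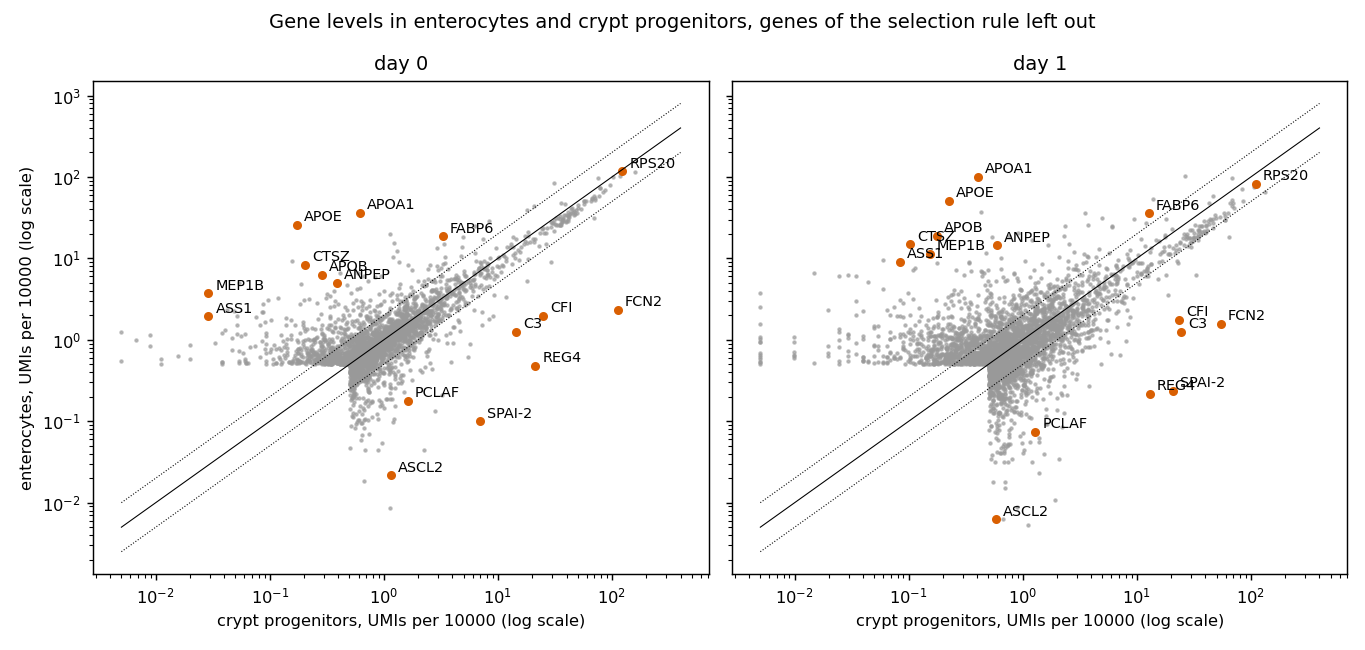
Level of each gene in enterocytes (vertical axis) against crypt progenitors (horizontal axis) of the same library, in UMIs per 10000 on log scales, for day 0 (206 crypt cells) and day 1 (76 crypt cells). Lines mark equal levels and 2-fold ratios, labelled genes are orange, and APOA1, APOE and MEP1B stand far above the line while FCN2, REG4 and C3 stand far below it.

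Several apolipoprotein and protease genes were among the 20 with the largest ratios in favour of enterocytes. APOA4 had 1.23 in enterocytes against 0.00446, from 2 UMIs, in crypt progenitors on day 0, and 6.16 against 0.0344 on day 1. On day 0 APOA1 had 36.0 in enterocytes and 0.617 in crypt progenitors, APOE had 26.0 in enterocytes and 0.174 in crypt progenitors, and CTSZ had 8.41 in enterocytes and 0.205 in crypt progenitors. On day 1 the same genes had 100.4 in enterocytes and 0.403 in crypt progenitors (APOA1), 50.9 in enterocytes and 0.226 in crypt progenitors (APOE) and 14.96 in enterocytes and 0.103 in crypt progenitors (CTSZ). MEP1B had 11.3 in enterocytes and 0.153 in crypt progenitors on day 1, and ASS1 had 9.10 in enterocytes and 0.0836 in crypt progenitors. Each of these was at least 41.0-fold higher in enterocytes on both days.

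FCN2, C3, CFI and REG4 were among the genes with lower levels in enterocytes than in crypt progenitors. FCN2, a ficolin that starts the lectin pathway, had 2.32 in enterocytes and 112 in crypt progenitors on day 0 and 1.57 in enterocytes and 54.4 in crypt progenitors on day 1. C3, the central complement component, had 1.26 in enterocytes and 14.6 in crypt progenitors on day 0, and CFI, the protease that inactivates it, had 1.97 in enterocytes and 24.996 in crypt progenitors. REG4, a lectin of crypt cells, had 0.476 in enterocytes and 21.2 in crypt progenitors, and ASCL2, a stem cell transcription factor, was 52.9-fold and 92.8-fold lower in enterocytes on days 0 and 1. REG3G differed less between these cells. It had 0.601 in enterocytes and 0.751 in crypt progenitors on day 0 and 29.3 in enterocytes and 44.5 in crypt progenitors on day 1. FABP6 was higher in enterocytes on both days, with 18.7 in enterocytes and 3.29 in crypt progenitors on day 0 and 35.6 in enterocytes and 12.7 in crypt progenitors on day 1. The ribosomal sum was 3524 and 3058 in crypt progenitors of days 0 and 1, above the 2933 and 1941 of enterocytes.

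Barcodes that met the rule except for a mitochondrial share of 25% or more, and had at least 5 UMIs of FABP6, numbered 21 on day 0 and 8 on day 1. On day 0 they were compared with the enterocytes on a total without mitochondrial genes, and their FABP6 level of 328 against 20.9 follows from their choice. SI stood at 1.99 against 0.172 and MGAM at 3.096 against 0.0856. APOE stood at 2.54 against 29.2, DAB2 at 3.32 against 9.16 and CTSH at 0.774 against 4.25. The disaccharidases were thus higher and APOE and the lysosomal genes lower in these barcodes. The high-mitochondrial barcodes were chosen for FABP6, so these differences are a description, and the part of cell damage in them was not tested.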

How the data were processed

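Per the labels, libraries were made with a 3' gel bead kit, given as V3 in the labels and V2 in the study's methods, and the authors made the deposited counts with Cell Ranger 3.1.0 and STAR on susScr11. Each deposited matrix holds UMI counts, not normalized, of 20648 genes in 6794880 barcodes, empty ones included, with 77391932 to 100348769 UMIs per library. Barcodes were filtered and enterocytes taken by the stated rule in Python 3.11.15 (numpy 2.4.6, scipy 1.17.1). Counts were summed over cells and given per 10000 UMIs. Folds against fewer than 3 UMIs used a floor of 3 UMIs in the library. Levels of free RNA came from barcodes with 1 to 100 UMIs. No doublet caller was run. TMM factors came from edgeR 4.0.16 in R 4.3.3, and the fold script was tested on simulated counts. Named genes were those of the rule, the fixed lists, the 25 highest per library, the 15 largest ratios each way per pair of ages, the 20 largest each way against crypt progenitors, and the 10 highest and lowest correlations with APOA4 and FABP6. The selection rule, the gene lists and the comparisons were chosen with earlier results of these data known. Coordinates are from RefSeq for Sscrofa11.1, the assembly also called susScr11. Alternatives changed the cell limits, the scale, the weight of cells, the free RNA, the minimum level and the fold. Days 3 and 21 had too few cells to be described. Some items are not reported here.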

Additional observations from a re-analysis of the deposited data

How the results depend on the processing

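No paired analysis was possible because each age has 1 library and no result comes from a test. Of the folds of single genes followed under the alternatives, 98 were at least 2-fold and 0 of these changed sign, and 3 of 49 smaller ones did (LYPD8 and S100G from day 0 to day 1, ISG15 from day 1 to day 7). Changes of scale shift all genes of a pair by the same factor, here under 1.5-fold, so they could not turn a fold of 2 or more. Of the correlations, 2 weak ones changed sign, that of APOA1 with the lysosomal list on day 14, which was 0.15, and that of REG3G with LOC100520832 on day 0, which was 0.15 and became -0.022 at 2000 UMIs. The number of cells moved beyond its interval with the mitochondrial limit at 15% (853 on day 0, 415 on day 1), without the 10% of cells with most UMIs, tried in place of doublet removal (927 and 443), with APOC2 left out of the rule (952 on day 0, 0 on day 3) and with APOA1 and FABP6 in place of APOC2, RBP2 and MEP1A (6 on day 3, 96 on day 7, of which 62 were among the 63). At least 10 absorptive UMIs gave 969 on day 0, within the interval of the count and just below that of the share. Alternatives that leave APOC2 out, replace these genes, drop ribosomal genes from the total, drop shared barcodes, leave out the cell with most APOC2 on day 7 or ask for intervals apart were chosen after seeing the data. Genes higher from day 0 to day 1 numbered 321, but 208 with TMM factors, 1311 with no minimum level and 33 at 4-fold. Genes lower numbered 56, but 110, 773 and 6 in those settings and 184 on the total without mitochondrial and ribosomal protein genes. With no minimum level there were 2224 higher and 912 lower from day 1 to day 7, 591 higher from day 7 to day 14 and 6099 higher from day 0 to day 14. At 4-fold there were 69 higher and 71 lower, 92 and 145, and 365 and 218 in those pairs. The total without mitochondrial and ribosomal protein genes gave 453 lower from day 1 to day 7 and 1639 from day 0 to day 14, and 367 of the 639 genes lower from day 7 to day 14 had intervals apart. Lysosomal genes higher from day 0 to day 1 numbered 7 without the deepest 10% of cells, 6 with TMM factors and 4 on that total, which also gave 4 microvillus, 5 apolipoprotein and 4 fatty acid genes from day 0 to day 14. Without thinning, APOA1 and the lysosomal list had r of 0.78 on day 1 and -0.033 on day 14 (-0.016 at 2000 UMIs), and FABP6 and the list -0.62 on day 1. Of the values for single genes under these settings, TMM factors left out, 17 moved by over 1.5-fold and 1453 did not. The unmoved ones include 147 on the total without mitochondrial genes and 147 on that without ribosomal protein genes too. These could not move, since a change of total shifts all genes of a pair by the same factor, here under 1.5-fold. Of all other values 39 moved and 311 did not. The 17 were of FABP6, SI, MGAM, LOC100520832, LYPD8, CCL20, IFITM3, RPS20, FOS and APOC2, and CCL20 from day 0 to day 14 was 2.34-fold lower, but 1.24-fold with APOC2 left out of the rule. The causes were not tested. Depth limits day 14 most, where 3 UMIs are 0.187 per 10000 and 23 cells stand for 1 library.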

Other observations

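Several gene groups of the enterocytes were not described above. Genes listed for the villus base, among them REG3G, LYPD8 and DMBT1, were higher in 8 of 9 measured from day 1 to day 7 with 0 lower, and NLRP6, a sensor of the epithelial inflammasome, and IL18, a cytokine it releases, were among them. Genes listed for the villus tip were higher in 6 of 9 measured from day 0 to day 14 and lower in 1, KLF4. The villus base list was higher in 7 of 9 over that span and lower in 1, GSTA1. Of all genes, 28.1% were higher and 22.5% lower from day 0 to day 14, and 8.98% were higher from day 1 to day 7. Members at the minimum level in only 1 library could only be called in its direction, so these counts and the next are descriptions. Ion and water transport genes were higher in 5 of 6 measured from day 0 to day 14 with 0 lower, with levels on days 0, 1, 7 and 14 of 1.52, 2.75, 1.97 and 4.68 for SLC26A3, a chloride and bicarbonate exchanger, and 0.111, 0.220, 0.143 and 0.873 for CA4, a membrane carbonic anhydrase.

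Among 23 enterocyte transcription factors, 13 were measured from day 0 to day 14. Of these 13, 4 were higher (CREB3L3, NR1H4, ELF3 and TCF7L2) and 3 lower (KLF4, ESRRA and GATA6). These counts are near the 28.1% higher and 22.5% lower of all genes in that pair, so they are no result about the list. HNF4A, a master regulator of enterocyte genes, had levels of 0.796, 0.928, 0.619 and 0.998. CDX2, which sets intestinal identity, had 1.53, 2.07, 1.82 and 2.49. Of the xenobiotic and steroid enzymes, 5 of 8 measured were lower from day 7 to day 14 and 0 higher, against 19.4% and 11.8% of all genes. Members at the minimum level in only 1 library could only be called in its direction, so this count is a description. Its lower genes included GSTA1, a glutathione transferase, with 0.920, 0.699, 1.05 and 0.249, and CES1, a carboxylesterase, with 0.760, 0.903, 4.30 and 1.12. GUCA2A, the hormone guanylin, was lower from day 1 to day 7, with 3.01, 2.70, 0.524 and 0.312. Cholesterol synthesis was little expressed, with 2 to 5 of 15 genes measured in any pair.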
